A study of Mus musculus with 8 samples.

Results

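Of the 20807 protein-coding genes annotated on chromosomes 1 to 19, 5170 (24.8%; 95% Wilson interval 24.3% to 25.4%) had no PBRM1 or BRG1 peak within 2000 bp of any of their transcript starts, and these peak-free genes are described here. They were chosen by the positions of peaks in 8 lists, made up of 3 replicates and 1 pooled list for each antibody, so the absence of a peak at their promoters is the rule and not a result. The lists came from chromatin immunocleavage sequencing (ChIC-seq), in which an antibody guides micrococcal nuclease to cut DNA beside its target protein in fixed cells. All libraries were from WT mice of 8 to 12 weeks and used primary uterine stromal cells, the fibroblast-like cells beneath the uterine epithelium, cultured for a few hours after 5 to 10 uterine horns were pooled. The labels call the stage day 4 of pregnancy, while their protocol describes pseudopregnant D4 horns, and they give 50000 cells and 5 minutes of fixation for each library. They name no strain, and the 2 IgG libraries were not analysed here.

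PBRM1 (also called BAF180) is the bromodomain subunit that defines the PBAF form of the SWI/SNF chromatin remodeler, and BRG1 is an ATPase motor of SWI/SNF complexes. Mammalian promoters fall broadly into CpG-rich ones, typical of housekeeping and developmental genes, and CpG-poor ones, typical of genes used by a single cell type, some of which carry a TATA box. Large gene families of the mouse, such as odorant receptors, lie in clusters that arose by repeated duplication, and near-identical copies make it difficult to place short reads.

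To show the sequence at annotated starts of such genes, the RefSeq genome sequence (GRCm38.p6) is printed. It runs from 250 bases before the annotated gene start to 50 bases from it, 5′ to 3′ on the coding strand. Capitals mark each CG dinucleotide and each TATAAA. The first 4 belong to the peak-free gene farthest from any peak in each of the 4 families with the most peak-free genes: Olfr1153 (chr2:87894712-87895011, plus strand), the type 1 vomeronasal receptor gene Vmn1r132 (chr7:21613842-21614141, plus), the type 2 receptor gene Vmn2r40 (chr7:8931386-8931685, minus) and the cytochrome P450 gene Cyp2c67 (chr19:39649002-39649301, minus).
Olfr1153: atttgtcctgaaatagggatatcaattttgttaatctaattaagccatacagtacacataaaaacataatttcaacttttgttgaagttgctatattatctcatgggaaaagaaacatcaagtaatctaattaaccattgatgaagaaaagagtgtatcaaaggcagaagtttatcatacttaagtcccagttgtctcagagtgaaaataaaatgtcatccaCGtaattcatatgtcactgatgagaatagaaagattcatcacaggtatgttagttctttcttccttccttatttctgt
Vmn1r132: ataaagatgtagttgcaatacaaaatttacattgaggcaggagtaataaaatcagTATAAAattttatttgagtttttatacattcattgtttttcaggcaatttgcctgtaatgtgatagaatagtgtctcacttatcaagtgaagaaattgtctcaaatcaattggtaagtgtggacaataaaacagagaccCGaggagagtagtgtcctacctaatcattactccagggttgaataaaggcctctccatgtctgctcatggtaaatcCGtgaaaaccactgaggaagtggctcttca
Vmn2r40: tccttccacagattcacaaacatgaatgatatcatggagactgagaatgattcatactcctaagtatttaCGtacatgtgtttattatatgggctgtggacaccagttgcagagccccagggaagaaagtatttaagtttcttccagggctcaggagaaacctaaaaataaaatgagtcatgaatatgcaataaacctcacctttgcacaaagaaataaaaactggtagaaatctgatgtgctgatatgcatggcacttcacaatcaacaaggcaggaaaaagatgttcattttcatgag
Cyp2c67: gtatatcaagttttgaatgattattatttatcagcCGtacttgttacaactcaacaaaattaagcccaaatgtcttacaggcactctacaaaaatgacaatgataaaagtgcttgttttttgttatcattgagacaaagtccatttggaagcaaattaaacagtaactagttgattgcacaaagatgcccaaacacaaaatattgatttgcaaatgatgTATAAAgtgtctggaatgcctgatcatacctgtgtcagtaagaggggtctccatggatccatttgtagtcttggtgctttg
These windows held 1, 2, 1 and 1 CG dinucleotides. TATAAA began 31 bases before the annotated start of Cyp2c67 and 195 bases before that of Vmn1r132. From that start the Vmn1r132 window reads atg, and its record has 1 start and 894 bp, so it may begin at the coding sequence. For such a record, the window and the 2000 bp limit could miss the true promoter. How many records are of this kind was not counted. None of the 50-base words in the Vmn1r132 and Vmn2r40 windows occurred only once in the genome, whereas all of those in the Olfr1153 and Cyp2c67 windows did.

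The opposite extreme is shown by Zfp541 (chr7:16061564-16061863, plus) and Cabp7 (chr11:4746729-4747028, minus), the peak-free genes with the highest CpG content among unique windows. The window of Vim (chr2:13573677-13573976, plus), which encodes the stromal filament protein vimentin, stands beside them as that of a gene with a promoter peak in every list.
Zfp541: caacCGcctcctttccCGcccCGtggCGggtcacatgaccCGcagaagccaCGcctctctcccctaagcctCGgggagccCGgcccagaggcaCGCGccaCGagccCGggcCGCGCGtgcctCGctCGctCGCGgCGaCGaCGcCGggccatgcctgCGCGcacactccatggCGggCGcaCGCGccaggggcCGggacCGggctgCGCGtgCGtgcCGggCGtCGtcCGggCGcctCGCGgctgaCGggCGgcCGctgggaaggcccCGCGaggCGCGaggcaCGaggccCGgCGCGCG
Cabp7: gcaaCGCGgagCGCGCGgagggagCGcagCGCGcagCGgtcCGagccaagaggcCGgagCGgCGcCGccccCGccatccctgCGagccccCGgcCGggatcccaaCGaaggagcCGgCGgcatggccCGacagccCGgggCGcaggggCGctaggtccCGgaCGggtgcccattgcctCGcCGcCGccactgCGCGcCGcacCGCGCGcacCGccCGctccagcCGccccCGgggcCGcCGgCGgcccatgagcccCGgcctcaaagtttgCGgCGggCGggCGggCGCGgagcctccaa
Vim: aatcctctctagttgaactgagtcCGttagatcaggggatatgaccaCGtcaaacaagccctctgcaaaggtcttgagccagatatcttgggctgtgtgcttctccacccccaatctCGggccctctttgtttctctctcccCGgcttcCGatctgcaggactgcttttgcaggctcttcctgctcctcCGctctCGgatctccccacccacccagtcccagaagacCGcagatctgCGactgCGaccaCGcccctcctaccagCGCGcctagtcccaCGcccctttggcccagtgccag
The windows of Zfp541, Cabp7 and Vim held 53, 50 and 14 CG dinucleotides.

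The PBRM1 replicates rested on 8868777 to 16505239 fragments and held 21912 to 26363 peaks. The BRG1 replicates had 11506964 to 14595089 fragments and 36656 to 40610 peaks. A peak was missing at 7994, 7855 and 8958 promoters in the 3 PBRM1 replicates and at 6730, 6959 and 6947 in the 3 BRG1 replicates. At the other end, 11134 genes (53.5%) had a promoter peak in all 6 replicates, and 664 had one only in a pooled list. Of 20 uterine stroma markers, 20 had a promoter peak in at least 1 list, with 15, 16 and 13 in the PBRM1 replicates and 17, 19 and 18 in the BRG1 replicates. A promoter peak in some list was also found for 22 of 24 uterine epithelium markers and 14 of 18 endothelium markers, including Epcam, Cdh1 and Pecam1. Of all 20807 genes 15637 had one, so the endothelium markers were near the share of all genes. Support by single replicates was thinner for them than for stroma markers. The PBRM1 replicates had a peak at 12, 9 and 7 epithelium and 9, 7 and 4 endothelium markers. For BRG1 these counts were 18, 13 and 18, and 13, 11 and 12. All 6 replicates had one at 11 stroma, 3 epithelium and 4 endothelium markers. Cdh5, an endothelium marker, had a promoter peak in 0 replicates.

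Just outside the distance limit, the nearest peaks of Frmpd2, Gm17660 and Sost lay 2002, 2005 and 2005 bp from a start. Just inside it, those of Pcdh15, Tchh and Oxgr1 lay 1991, 1981 and 1981 bp away. Each of these 6 genes was placed by a peak of a pooled list, and none of the last 3 had a replicate peak within the limit.

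Chemosensory receptors made up the largest block of peak-free genes. Olfactory receptors, which detect odorants in the nasal epithelium, accounted for 1102, or 97.7% (interval 96.6% to 98.4%) of the 1128 annotated. Among vomeronasal receptors, which detect pheromones, 207 of 208 type 1 and 118 of 119 type 2 genes were peak-free. These 3 families together gave 1427 of the peak-free genes (27.6%). The few promoter peaks in them were scattered over the lists, since the PBRM1 replicates had 6, 5 and 2 olfactory receptor promoters with a peak and the BRG1 replicates 7, 8 and 4. Olfr94 on chromosome 17 was the olfactory receptor gene with a peak in all 6 replicates, with fold enrichments over local background of 9.11, 7.95 and 6.01 for PBRM1 and 11.7, 9.12 and 9.11 for BRG1. The other exceptions were Vmn1r4, with a peak in 6 replicates and a CpG-rich window, and Vmn2r7, with a peak in 2. Bitter taste receptors (34 of 35), trace amine receptors (14 of 15) and formyl peptide receptors, which sense bacterial peptides (7 of 7), were close behind. Their exceptions, Tas2r126 and Taar2, had a peak only in the pooled PBRM1 list.

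**Figure D1:**
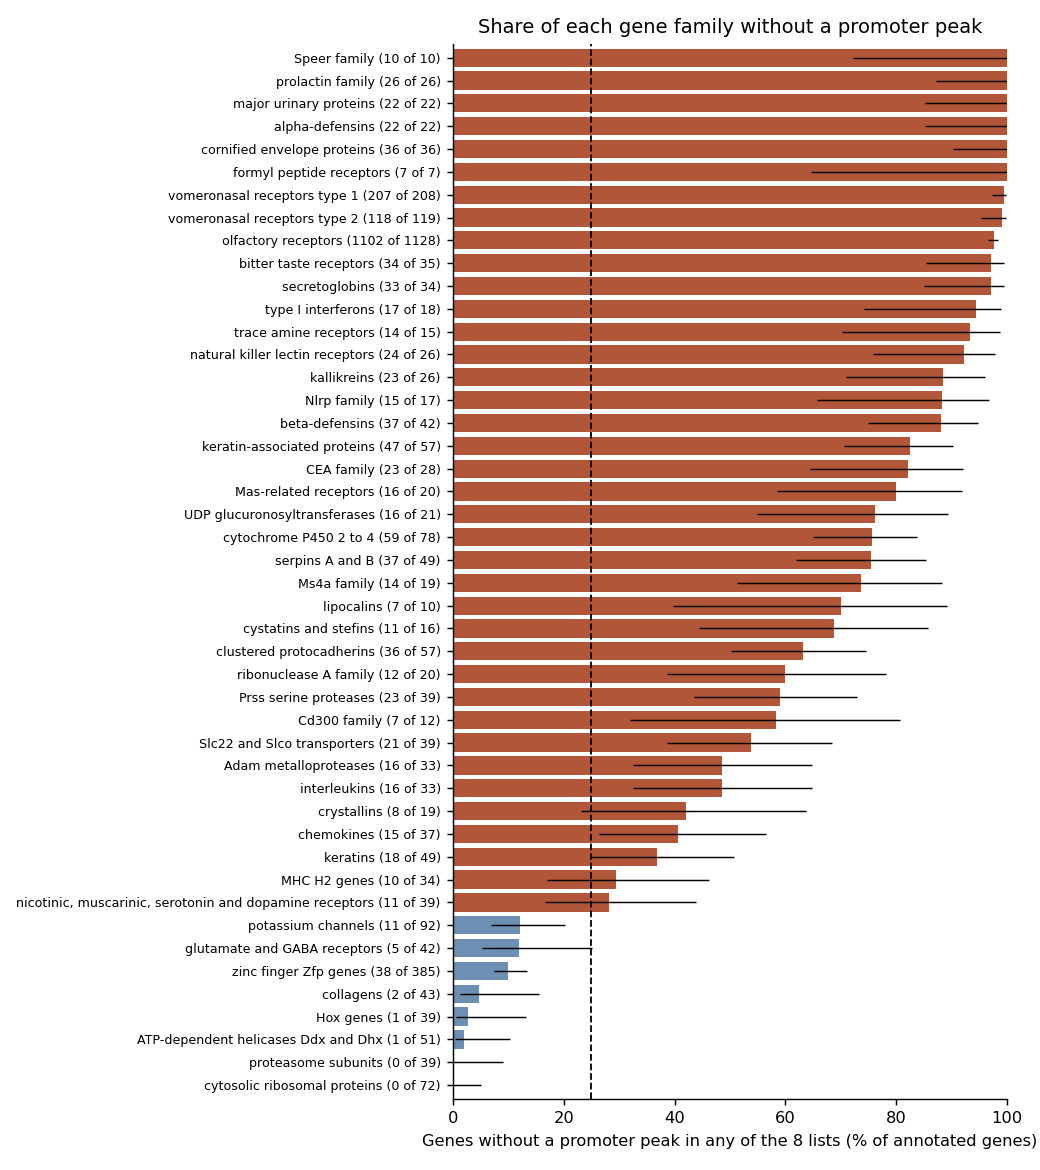
Share of each of 46 gene families without a promoter peak in any of the 8 lists, as bars in percent of the annotated genes on chromosomes 1 to 19, with 95% Wilson intervals that cover counting error only. The dashed line is the 24.8% of all protein-coding genes, and 38 families lie above it.

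Families of secreted and barrier proteins were the next group. All 36 cornified envelope genes (Lce and Sprr, which build the outer skin), all 26 prolactin family genes, all 22 major urinary protein genes and all 22 alpha-defensin genes, which encode antimicrobial peptides, were peak-free. Secretoglobins (33 of 34), beta-defensins (37 of 42), keratin-associated hair proteins (47 of 57) and kallikrein proteases (23 of 26) had a few exceptions. Defb42 was the beta-defensin gene with a promoter peak in all 6 replicates, at fold enrichments of 5.06 to 9.81. Drug- and steroid-metabolizing cytochrome P450 genes of families 2 to 4 were peak-free in 59 of 78 cases, and 9 had a peak in 6 replicates, Cyp2r1 and Cyp4f13 among them.

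Immune families varied widely. Natural killer lectin receptor genes were peak-free in 24 of 26 cases and type I interferon genes in 17 of 18, but interleukins in 16 of 33 and chemokines in 15 of 37. MHC H2 genes, which include the antigen-presenting molecules of most cells, were near the share of all genes, with 10 of 34, and H2-K1 and H2-M3 had a peak in 6 replicates. Clustered protocadherins, neuronal adhesion proteins on chromosome 18, were peak-free in 36 of 57 genes.

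Families used in every cell or in development were seldom peak-free. No gene was peak-free among 72 cytosolic ribosomal protein genes, 39 proteasome subunit genes or 27 genes of SWI/SNF subunits. Of 51 Ddx and Dhx helicase genes only Ddx4, a germ cell gene, was peak-free, and of 39 Hox genes only Hoxb8. The nearest peak of Ddx4 lay 7977, 7942 and 7943 bp away in the PBRM1 replicates and 7944, 7943 and 8068 bp in the BRG1 replicates. For Hoxb8 these distances were 21007, 16405 and 58978 bp for PBRM1 and 3469, 4224 and 9764 bp for BRG1, so each BRG1 replicate lay closer than each PBRM1 replicate. Of 43 collagen genes 2 were peak-free, and Col9a1, a cartilage collagen, was the farther of them at 7928 bp. Of the channel and transmitter receptor families of the nervous system, 11 of 92 potassium channel genes and 5 of 42 glutamate and GABA receptor genes were peak-free. For nicotinic, muscarinic, serotonin and dopamine receptors it was 11 of 39, near the share of all genes. Support in single replicates differed among these families. All 6 replicates had a promoter peak at 68 of 72 ribosomal protein, 36 of 39 proteasome and 24 of 27 SWI/SNF genes. For Hox genes this was 9 of 39, and for collagens 12 of 43, below the 53.5% of all genes. It was 26 of 92 for potassium channels and 6 of 42 for glutamate and GABA receptors. The PBRM1 replicates had a peak at 16, 16 and 13 Hox promoters, and the BRG1 replicates at 30, 27 and 26.

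Genes of other organs were split in the same way. Peak-free were 19 of 24 exocrine pancreas and islet genes, 17 of 24 hepatocyte genes, 15 of 24 spermatid genes and 9 of 15 erythroid genes, but 9 of 23 oocyte genes, 7 of 18 photoreceptor genes, 7 of 26 striated muscle genes and 2 of 25 neuron genes (Vip and Tph2). Examples are the trypsin genes Prss1, Prss2 and Try4, albumin (Alb), the protamine family gene Prm3 and the globin genes Hba-a1 and Hbb-bs. Of 7 pituitary hormone genes 5 were peak-free, and the exceptions Gh and Lhb had a peak in 0 and 1 replicates. All family and list counts stand beside the 24.8% of all genes, and genes of a family share sequence and neighbourhood, so they are not independent.

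Among immune cell markers, 18 of 29 lymphocyte and natural killer markers and 16 of 22 myeloid and mast cell markers were peak-free. Cd3e (T cells), Ncr1 (natural killer cells), Itgam and Csf1r (macrophages) and the pan-leukocyte gene Ptprc were all in this group. In libraries from pooled cells, few cells with a bound promoter and weak binding in many cells cannot be told apart. Among endothelium markers, Emcn, Robo4, Plvap and Ly6c1 were peak-free, and among smooth muscle markers Cnn1 was, with a peak 2931 to 2966 bp from its start in each replicate. The uterine epithelium markers without a promoter peak were Cxcl15 and Prss8.

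Genes of the decidualization list act in stromal cells around implantation. Peak-free were 3 of 18 (16.7%, interval 5.84% to 39.2%), which is not apart from the 24.8% of all genes. All 3 were prolactin family genes of the decidua, Prl8a2, Prl3c1 and Prl6a1. For Prl8a2 the nearest peak lay 1407817, 1068017 and 779879 bp away in the PBRM1 replicates and 757585, 721015 and 1050375 bp in the BRG1 replicates. The ranges of both antibodies overlapped. The other genes of this list had a promoter peak in at least 1 list. The whole prolactin family on chromosome 13 had a median distance of 431748 bp to any peak, and no prolactin family promoter had a peak in any list.

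Predicted genes, named Gm and a number, contributed 872 peak-free genes (16.9%), out of 1226 annotated. Their windows were often repeated in the genome, since only 306 of the 872 were unique, where a window counts as unique when at least 90% of its 50-base words occur once. By the same measure 3707 of all peak-free windows (71.7%) and 96.9% of windows of genes with a promoter peak were unique. Few windows were unique in alpha-defensins (1 of 22), the Speer family (2 of 10), major urinary proteins (5 of 22) and Zfp zinc finger genes (10 of 38), more in vomeronasal receptors (98 of 207 and 57 of 118) and most in olfactory receptors (960 of 1102) and bitter taste receptors (34 of 34). Read pairs with a low mapping quality were removed before peak calling, and the part of this filter in the absence of peaks was not tested. Among genes with a unique window, 19.7% were peak-free, against 24.8% of all.

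Peak-free genes lay beside each other. The next gene along the chromosome was also peak-free for 65.1% of peak-free genes and for 11.5% of the others. Runs of 5 or more neighbouring peak-free genes numbered 187 and held 3020 of them (58.4%), and 45 runs of 20 or more held 1824 (35.3%). Olfactory receptors were the main family in 19 of these 45 runs and vomeronasal receptors in 6, and in 9 runs most genes were predicted Gm genes. A further 1265 peak-free genes (24.5%) had no peak-free neighbour. By chromosome, the share ranged from 14.6% on chromosome 12 to 38.2% on chromosome 14. Without olfactory and vomeronasal receptors chromosome 7 went from 37.2% to 22.2% and chromosome 2 from 30.5% to 17.3%, whereas chromosome 14 stayed at 35.3%.

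The longest run held 234 genes on chromosome 2, from Olfr987 to Olfr1274-ps (chr2:85330779-90403897), of which 227 were olfactory receptors. No list had a peak between positions 85319413 and 90474755, a stretch of 5155341 bp with no assembly gap. Of its 234 windows, 201 were unique. Olfr1153, Olfr1154, Olfr1152, Olfr1151 and Olfr1155 in the middle of it were the 5 protein-coding genes farthest from any peak. For Olfr1153 the nearest peak lay 2715992, 2578788 and 2578825 bp away in the PBRM1 replicates and 2578853, 2578780 and 2578885 bp in the BRG1 replicates. PBRM1 replicate 1 was thus the farthest, and the other 5 replicates lay close together.

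**Figure D2:**
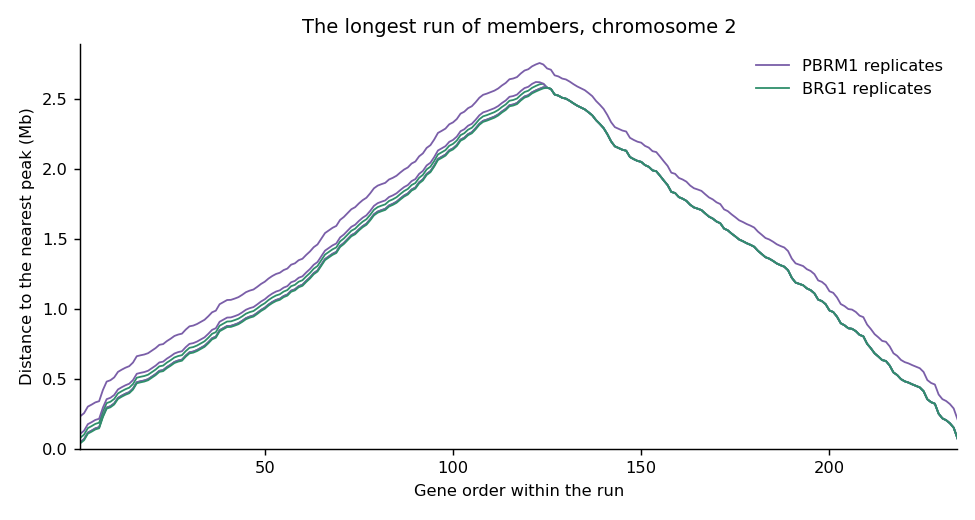
Distance to the nearest peak in Mb for the 234 genes of the longest run, in gene order, with a line for each of the 3 PBRM1 and 3 BRG1 replicates. All 6 lines rise from each end to a maximum of 2.58 to 2.75 Mb at the middle, and PBRM1 replicate 1 lies above the others.

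The other long runs differed in makeup. The second, of 105 genes from Ceacam20 to Vmn1r183 on chromosome 7, held 65 type 1 vomeronasal receptors and 35 Gm genes, but only 7 unique windows. The third, of 94 genes from Olfr557 to Olfr649 on the same chromosome, held 82 olfactory receptors and the beta-globin cluster, with 87 unique windows and no peak of any list in 1.50 Mb. Hbb-bs, the adult beta-globin gene inside it, was 390526 bp from any peak. A run of 65 genes from Olfr99 to Rhag on chromosome 17 held 40 olfactory receptors and the nonclassical MHC gene H2-M2, and 21 peaks, counted over the 8 lists, lay within its span. The fifth, of 64 genes from Defb40 to Ccdc70 on chromosome 8, held alpha- and beta-defensins. Its span held 76 peaks over the 8 lists, and assembly gaps made up 11.7% of it. On chromosome 14, a run of 58 genes from Mat1a to Ear1 with 49 Gm genes had 4 unique windows, and a run of 43 with 41 Gm genes had 1.

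The median distance from a peak-free gene to the nearest peak of any list was 46791 bp (quartiles 9207 and 209919 bp). It was 206927 bp for olfactory and vomeronasal receptors and 23807 bp for the other peak-free genes. A peak lay between 2000 and 5000 bp from a start of 757 peak-free genes (14.6%), whereas 238 (4.60%) were over 1000000 bp away. For genes without a peak-free neighbour the median was 7005 bp, and for genes in runs of 20 or more it was 281724 bp. Runs are defined by the absence of promoter peaks at neighbouring genes. This contrast is therefore built into the definition of a run and is not a separate result. The nearest peak lay near the promoter of another protein-coding gene, within the same 2000 bp, for 1767 (34.2%) and was overlapped in all 6 replicates for 863 (16.7%). For 1679 (32.5%) it was overlapped in no replicate, so a pooled list alone set the distance.

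**Figure D3:**
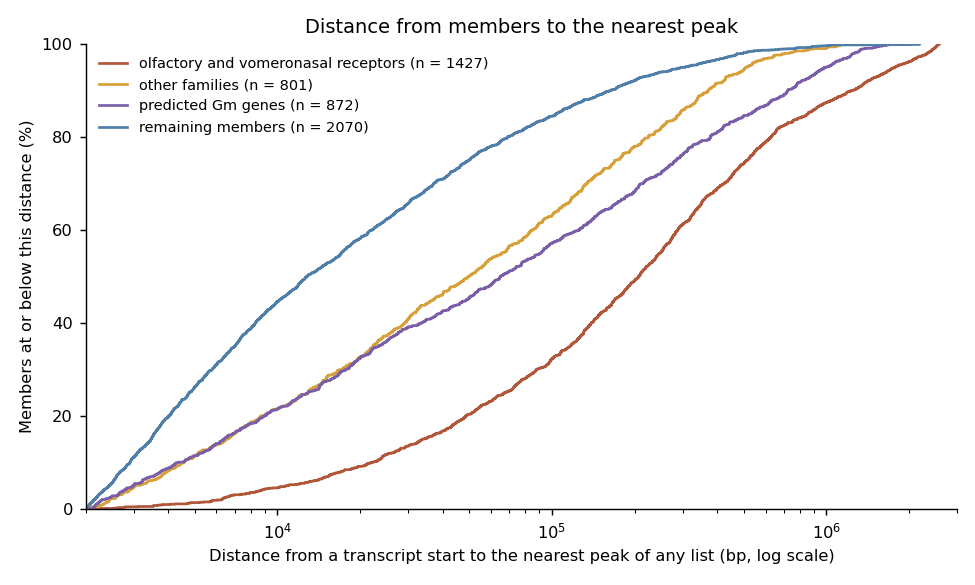
Cumulative share of peak-free genes, in percent, at or below each distance in bp (log scale) to the nearest peak of any list. The curve of the 1427 olfactory and vomeronasal receptors lies to the right of the 801 genes of other families, the 872 predicted Gm genes and the 2070 remaining genes.

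Whether PBRM1 and BRG1 differed beyond the 2000 bp was compared over the replicate lists. The median distance from peak-free genes to the nearest peak was 126499, 112254 and 122406 bp in the PBRM1 replicates and 95271, 96159 and 92948 bp in the BRG1 replicates. The groups did not overlap, and PBRM1 exceeded BRG1 by a mean of 25594 bp (two-sided exact permutation test, p = 0.1, adjusted p = 0.1 over 3 tests, n = 3 each). A peak lay inside the gene but over 2000 bp from every start in 4.22%, 4.68% and 3.91% of peak-free genes for PBRM1 and in 6.79%, 6.56% and 6.81% for BRG1, a PBRM1 minus BRG1 difference of -2.45 percentage points (exact permutation test, p = 0.1, adjusted p = 0.1). A peak within 10000 bp of a start was found for 9.85%, 10.5% and 9.42% for PBRM1 and 14.2%, 13.6% and 14.2% for BRG1, a difference of -4.08 points (exact permutation test, p = 0.1, adjusted p = 0.1). A p of 0.1 is the smallest that 3 replicates against 3 can give.

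BRG1 had more peaks than PBRM1 in every replicate. With only the 20000 strongest peaks of each replicate, the mean distances were 133973 and 138551 bp, and the difference turned to -4577 bp (exact permutation test, p = 0.2). The shares with a peak inside the gene were then 3.50% and 3.46% (p = 0.8, exact permutation test), and those with a peak within 10000 bp 8.78% and 8.73% (p = 0.9, exact permutation test), so with equal numbers of peaks the groups overlapped in all 3 measures.

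**Figure D4:**
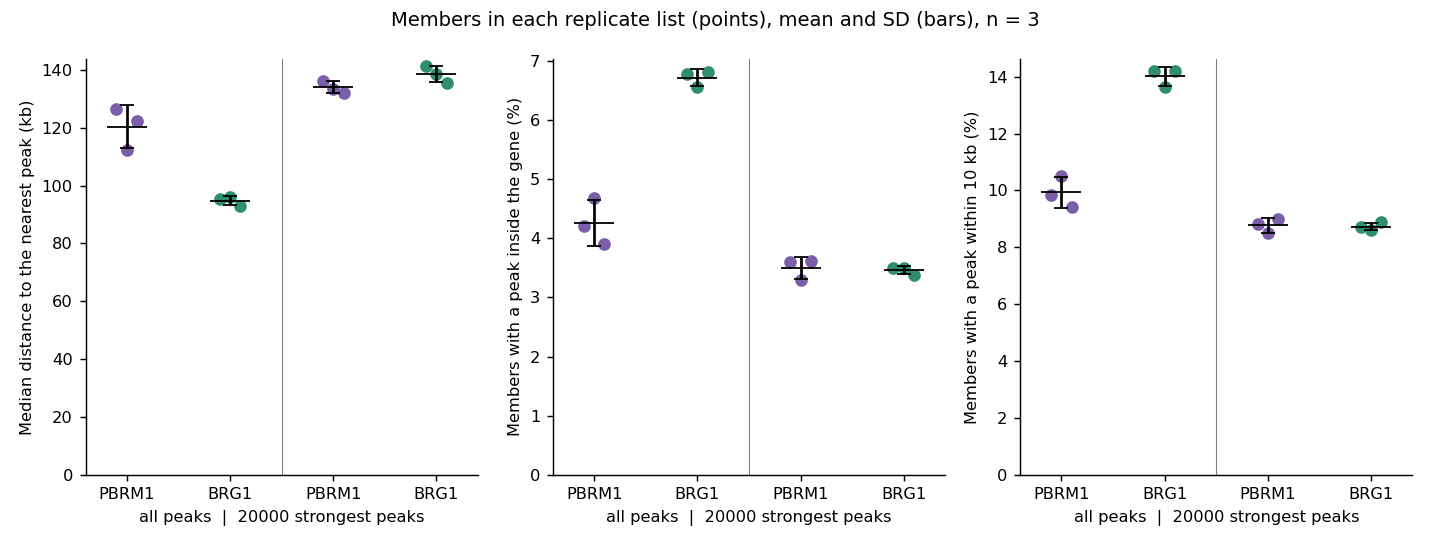
Median distance in kb and percent of peak-free genes with a peak inside the gene or within 10 kb of a start, in each replicate (points), with mean and SD (n = 3), for all peaks (left of each grey line) and for the 20000 strongest peaks (right). The antibodies are apart with all peaks, and with equal peak numbers their points overlap in each panel.

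Over all lists, 760 peak-free genes (14.7%) had a peak inside the gene, against 42.2% of all genes. Peak-free genes were shorter, with a median of 7115 bp against 23599 bp for genes with a promoter peak, but the gap was present within length classes. Between 10000 and 50000 bp, 24.7% of 1544 peak-free genes and 52.1% of 7189 genes with a promoter peak had an inside peak, and at 100000 bp or more these shares were 68.8% and 91.8%. Within 10000 bp of a start, 81.6% of all genes had a peak of any list, and 1349 of the 5170 peak-free genes (26.1%) did. The first share includes, by the rule, every gene with a promoter peak. This gap therefore follows from the selection and is not a result.

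An inside peak was present in all 6 replicates in 134 peak-free genes, and in 125 of them at the same place. These are counts of genes and not of sites, since overlapping genes can share a peak. The peak at chr18:37805995-37807360, for example, lay inside many of the clustered protocadherin genes and was counted for each. An inside peak was checked against the starts of its own gene only, so it can lie at the promoter of another gene. That of Ugt1a10 (chr1:88134017-88134847), for example, was also a promoter peak of Ugt1a6a. How often this held was not counted. Among the 125 genes, the highest mean BRG1 fold enrichments were in Gm43518, Arhgap26, Gm45021, Smyd1 and Fpr3. In Gm43518 (peak at chr5:123930415-123931053) the BRG1 replicates gave 14.3, 15.1 and 13.0 and the PBRM1 replicates 10.4, 8.60 and 7.42. In Arhgap26, a GTPase-activating protein gene of 433817 bp, the values were 13.1, 13.7 and 13.5 for BRG1 and 10.2, 8.11 and 9.33 for PBRM1. In Smyd1, a gene of heart and skeletal muscle with a peak 9043 bp from its start, they were 14.9, 12.1 and 12.5 for BRG1 and 14.1, 10.1 and 8.21 for PBRM1, so these ranges overlapped. Each fold enrichment is relative to its own library, so values of different libraries are only roughly comparable. Of the named peak-free markers, Plvap and the hormone precursor gene Pomc had an inside peak in 6 replicates, Csf1r in 5, Robo4 in 4 and Ptprc in 2.

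Promoter sequence was not used by the rule. The CpG observed over expected ratio, the count of CG dinucleotides divided by that expected from the C and G content of the window, had a median of 0.138 (quartiles 0.0660 and 0.252) at peak-free genes, 0.540 at all genes and 0.688 at genes with a promoter peak. Of the peak-free windows, 90.3% were below 0.4, against 40.7% of all. The median rose with support, from 0.246 for genes with a peak only in a pooled list and 0.285 for those with a peak in 1 replicate to 0.753 for those with a peak in 6. Conversely, 68.5% of 4928 genes with a ratio below 0.2 were peak-free, 11.9% of 2863 between 0.4 and 0.6, and 0.918% of 5446 at 0.8 or more. With unique windows alone, the first and the last share were 62.2% and 0.542%. These are descriptions across genes, which are not independent replicates.

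**Figure D5:**
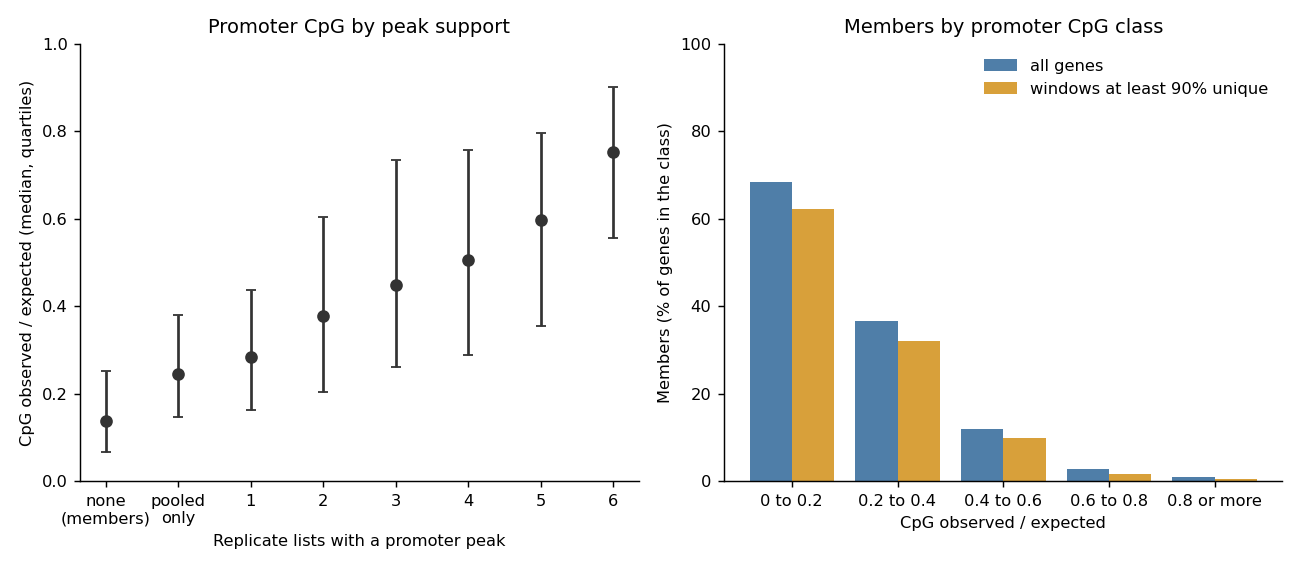
Left, median and quartiles of the CpG observed over expected ratio of the promoter window, from peak-free genes (0.138) to genes with a promoter peak in 6 replicates (0.753). Right, percent of genes in each CpG class that were peak-free, for all genes and for windows at least 90% unique, falling from 68.5% to 0.918% and from 62.2% to 0.542%.

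Below a ratio of 0.4, 3800 genes had a promoter peak and 55.1% of the genes were peak-free. Against this share, 10 uterine stroma markers were below 0.4 and 0 of them were peak-free. Of 18 collagen genes below 0.4, 1 was peak-free. Low shares were not limited to stromal genes, with 2 of 14 uterine epithelium markers, 1 of 9 neuron genes and 5 of 16 striated muscle genes peak-free below 0.4. At the other end, 1087 of 1113 olfactory receptors, 19 of 21 exocrine pancreas and islet genes and 17 of 22 hepatocyte genes below 0.4 were peak-free. Col3a1, a main collagen of connective tissue, had no CG dinucleotide in its window and had a promoter peak in 2 PBRM1 replicates.

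CpG-rich peak-free genes were rare, with 50 genes at 0.8 or more, of which 29 had a unique window. The highest ratios among unique windows were those of Zfp541 (1.12), Cabp7 (1.03), Gm21863 (0.989), Hoxb8 (0.970) and Pcdha6 (0.950). The nearest peak of Zfp541, a germ cell zinc finger gene, lay 8711, 8643 and 8713 bp away in the PBRM1 replicates and 8664, 8654 and 8642 bp in the BRG1 replicates. For Cabp7, a calcium-binding protein gene, the distances were 42378, 41625 and 41926 bp for PBRM1 and 3485, 42067 and 7838 bp for BRG1, so BRG1 replicate 2 lay with the PBRM1 replicates.

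TATAAA, searched for as exact letters on the coding strand of the window, was found at 18.9% of peak-free genes and 8.70% of all genes. On either strand the shares were 26.0% and 12.7%. Below a CpG ratio of 0.4, it was found on the coding strand at 19.5% of peak-free genes and 8.58% of genes with a promoter peak. Keratin-associated proteins (37 of 47 peak-free genes) and alpha-defensins (18 of 22) carried it often, and of the 1102 olfactory receptors 245 did. A match gives letters and not a site of binding. The word holds only A and T, and base composition differed between the groups. The median G and C share of the window was 44.3% at peak-free genes, 55.3% at all genes and 58.7% at genes with a promoter peak. At peak-free olfactory and vomeronasal receptors it was 37.7%. Whether the TATAAA shares differ at equal G and C content was not tested.

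Gene models of peak-free genes were also smaller. They had a median of 2 transcript starts and 4 exons, against 4 and 9 for genes with a promoter peak, and 43.4% had 1 start, against 13.8%. A peak at any start removed a gene from the group, so a gene with few starts had fewer places where a peak could remove it. Counted at the start of the gene record alone, 5950 genes had no peak.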

How the data were processed

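ChIC-seq peak lists of PBRM1 and BRG1 in WT primary uterine stromal cells (3 replicates per antibody and a pooled list each) were analysed, and samples were grouped by the antibody in their labels. The authors trimmed reads with cutadapt, aligned them with Bowtie2 to GRCm38.p5, removed pairs of low mapping quality and duplicates, and called peaks with MACS 2.2.7.1 at a q-value of 0.05 against a local background of up to 10000 bp, with no control file in the headers. In the deposited lists each peak has a fold enrichment, a −log10 q-value and a pileup (signal) value computed by MACS. Depth was 8868777 to 16505239 fragments per replicate, and a site too weak for this depth has no peak.

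Distances ran from each transcript start of the full GENCODE M21 set (GRCm38) to the nearest peak edge, in Python 3.11.15 with numpy 2.4.6, pandas 2.3.3, scipy 1.17.1 and numba 0.67.0, and figures used matplotlib 3.10.9. A run is a stretch of consecutive peak-free genes in order of start. Uniqueness is the share of 50-base words of a window found once in the RefSeq GRCm38.p6 assembly, in either orientation. Chromosome coordinates are the same in both patch releases. Families were taken by symbol and lists by hand. Named genes were, per family, the farthest peak-free gene and up to 2 genes with the most supported promoter peaks, the first 3 peak-free genes of each list and the exceptions where 4 or fewer, the ends of the 5 longest runs, the extremes of distance and CpG, those nearest the limit, and 5 genes with inside peaks. The peak-free genes, families, lists and tests were chosen with earlier results of these data known.

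The 3 measures over replicates were compared by two-sided exact permutation tests with Benjamini-Hochberg adjustment. Nothing in the labels says that the replicates came from separate animals, so p-values measure the spread between these samples. Wilson intervals are at 95%. The distance step recovered all 1000 distances planted in simulated data. Alternatives were other distances, annotation, peak lists, q-values, equal peak numbers, unique windows and each replicate left out. One marker gene of the fixed lists is not reported here.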

Additional observations from a re-analysis of the deposited data

How the results depend on the processing

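The number of peak-free genes stayed within 1.5 times of 5170 under the alternatives named in the methods. It ranged from 3707 with unique windows alone to 6077 with only peaks of a −log10 q of at least 5. Without 1 replicate list it was 5174 to 5198. The pooled lists, which hold the fragments of the left-out replicate, were kept there, so this number could hardly change. An alternative chosen after seeing the data, genes at least 90% unique within 2000 bp of the gene start, gave 3368 of 18239 (18.5%). Without olfactory and vomeronasal receptors, 1626 of the other 3743 peak-free genes lay in runs of 5 or more, from 3020 of 5170 with them. The counts have different bases, since these families were left out. With 500 bases on either side of the start, 92.7% of peak-free windows were below a CpG ratio of 0.4, from 90.3%. With the 20000 strongest peaks of each replicate, the differences between PBRM1 and BRG1 changed sign, to -4577 bp, 0.0387 and 0.0451 percentage points. List sizes were then equal, and the replicates of both antibodies overlapped in all 3 measures. Paired by replicate number (replicate block, exact sign-flip test over 3 pairs), the differences of 25594 bp, -2.45 and -4.08 points had p = 0.25, the smallest that 3 pairs can give. The labels do not say whether same-numbered replicates shared cells. Deviations of same-numbered replicates had correlations of -0.0371 to -0.0176, which cannot decide this with 3 pairs. Without 1 replicate the differences ranged from 22537 to 29660 bp, from -2.66 to -2.27 and from -4.38 to -3.83 points. Of 690 family shares under the alternatives, 655 stayed in the 95% interval of the share reported. This total includes the settings without 1 replicate list, where the pooled lists were kept and no family moved. Of the 46 families, 11 moved with only peaks of a −log10 q of at least 5. With only the 6 replicate lists 8 moved, and with a promoter distance of 5000 bp 7 did.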
